A study of Homo sapiens with 8 samples.

Results

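The 7 genes described here are the coactivator genes YAP1 and WWTR1, which encodes TAZ, and 5 genes widely used as readouts of their activity with TEAD factors: ANKRD1, CCN1, CCN2, AMOTL2 and LATS2. All probe sets paired with exactly 1 of these symbols were taken, which gave 15 probe sets of 41091 with a single symbol, and 7 genes of 19775. They were measured in A375, a human melanoma line with an activating BRAF mutation, on 8 expression arrays with 1 array per condition. Before culture the cells received siRNA: nontargeting (siCont), or directed at BRAF (siBRAF) or at ATF4 (siATF4), the latter a transcription factor of the amino acid and stress response. On 5 arrays the cells had been kept for 18 h in normal medium (siCont, siBRAF, siATF4) or in glutamine-free medium (siCont, siBRAF). On 3 arrays they had been kept for 4 h in DMSO (siCont) or in 10 uM vemurafenib, an inhibitor of mutant BRAF (siCont, siATF4). All 8 arrays come from transfected cells of this 1 line. The medium of the DMSO and vemurafenib cultures, the cell density and the interval after transfection are not given in the sources used here.

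YAP and TAZ are coactivators that cannot bind DNA by themselves and reach their target genes through the TEAD transcription factors. The Hippo kinase cascade ends in LATS1 and LATS2, which phosphorylate YAP and TAZ and keep them out of the nucleus, so their activity is set largely by protein location rather than by transcript level. Cell density, stiffness of the substrate, actin tension and serum all feed into the cascade, and in melanoma YAP and TAZ have been tied to invasion and to tolerance of BRAF inhibitors. CCN1 and CCN2 encode secreted matricellular proteins, and ANKRD1 a nuclear and sarcomeric ankyrin repeat protein. LATS2 and AMOTL2 are target genes whose products restrain YAP, so they act as negative feedback.

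TEAD factors recognise a short core, GGAATG, which reads CATTCC on the opposite strand. The promoter stretches of the members with such a core are printed to show the letters these regulators are known to read, where they occur near the genes measured. Sequences are from RefSeq on GRCh38.p14, written 5′ to 3′ on the strand of the gene, with the core in capitals. Of the 7 genes 6 had a window, all but CCN1. The 250 bases before the start are given for CCN2 (chr6:131951373-131951622, minus strand) and ANKRD1 (chr10:90921088-90921337, minus strand), which hold more than 1 core. For AMOTL2 (chr3:134374501-134374526, minus strand), LATS2 (chr13:21061562-21061587, minus strand) and YAP1 (chr11:102110275-102110300, plus strand) 26 bases around the core are given.
CCN2: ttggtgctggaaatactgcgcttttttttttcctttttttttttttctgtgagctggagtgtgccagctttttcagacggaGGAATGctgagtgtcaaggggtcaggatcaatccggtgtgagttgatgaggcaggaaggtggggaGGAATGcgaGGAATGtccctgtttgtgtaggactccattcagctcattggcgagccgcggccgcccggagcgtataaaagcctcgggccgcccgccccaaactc
ANKRD1: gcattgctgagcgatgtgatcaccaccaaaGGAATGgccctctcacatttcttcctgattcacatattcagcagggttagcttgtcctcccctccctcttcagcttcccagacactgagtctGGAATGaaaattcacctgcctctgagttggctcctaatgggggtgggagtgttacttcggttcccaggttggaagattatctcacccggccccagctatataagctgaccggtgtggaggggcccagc
AMOTL2: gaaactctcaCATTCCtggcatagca
LATS2: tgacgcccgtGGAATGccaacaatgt
YAP1: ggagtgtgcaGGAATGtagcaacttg

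Positions are given for the first base of the core, as bases from the start of transcription. The CCN2 promoter held 3 cores, at -169, -104 and -95, all in the direction of the gene. ANKRD1 had 2, at -220 and -128. AMOTL2 had 1 at -69, on the opposite strand, at the second of its 2 RefSeq starts, and none at the first. The LATS2 core lay 10 bases into the transcript and the YAP1 core at -162, while neither WWTR1 window held one. Among 35116 windows of the same 300 bases (250 before and 50 after a start, both strands searched), 14% held at least 1 core, 1.37% at least 2 and 0.128% at least 3. Counted by gene, 16.7% of 27305 genes had a core in some window, against 5 of the 6 members with a window and 5 of the 12 windowed genes of a wider YAP signature described further on. A match of 6 letters is a description of the sequence and was not tested as a binding site.

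**Figure D1:**
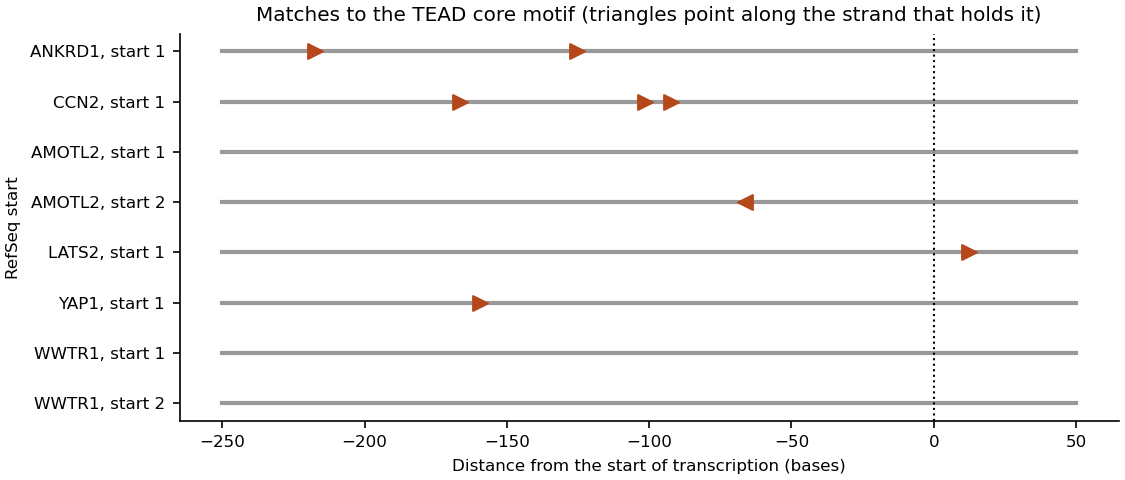
Positions of the TEAD core in the RefSeq promoter windows of 6 member genes, in bases from the start of transcription (x axis), with 1 line per annotated start and triangles pointing along the strand that carries the core. CCN2 holds 3 cores and ANKRD1 2 before their starts, and the LATS2 core lies 10 bases after its start.

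Values are intensities on a linear scale. The 5 medium arrays had median intensities of 14.7 to 15.5 and the 3 DMSO and vemurafenib arrays 36.3 to 36.8, so levels are compared, and differences formed, only within each set. Differences are of log2(intensity + 1) between 2 single arrays, with the probe set of highest mean standing for a gene, and a gene passed the level filter where its larger value was at or above the array median. With 1 array per condition no difference has a replicate check and no p-value is given; the number of arrays limits the precision. In normal medium ATF4 read 1814 in siCont and 534 in siATF4 cells, and in vemurafenib 4548 and 757. No probe set used here was paired with BRAF, but DUSP6, a phosphatase gene driven by ERK, was 320.3 with siBRAF against 1411 with siCont in normal medium, and 15 in vemurafenib against 1733 in DMSO. Log2 actin signal at the 3′ end exceeded that at the 5′ end by 0.28 on the siCont glutamine-free array and by 0.16 to 0.20 on the other 4 medium arrays; on the DMSO and vemurafenib arrays it ran from -0.18 to 0. The part of this in the results was not tested. The melanoma genes SOX10, MITF and AXL were above the median on all arrays, with SOX10 at 497 to 1117 on the medium arrays. So were 2 of 4 epithelial, 3 of 4 fibroblast, 1 of 2 leukocyte and 1 of 3 endothelial markers with a value. A place above the median therefore does not by itself mark a cell type. MLANA, a pigment cell antigen, lay below the median on all 8 arrays and PMEL on 5.

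Without glutamine, siCont cells had more of all 5 target transcripts, and less WWTR1 and, on 2 of its 3 probe sets, less YAP1. At least 2-fold up were 5 of the 7 members and down 0, and their median difference was 1.61. Of the 13347 genes that passed the filter, 5.8% lay at least 2-fold up, 7.26% down and 13.1% either way, around a median of -0.05. The members were chosen with earlier results of these data known, so member counts and medians, here and below, are descriptions. In bulk RNA, fewer cells with a transcript and less transcript per cell cannot be told apart.

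CCN1 read 663 on the siCont array in normal medium and 2631 without glutamine, with 1593 and 2205 on the siBRAF arrays in normal and glutamine-free medium and 469 with siATF4. The siCont glutamine-free array was thus the highest of the 5 and the siATF4 array the lowest. The difference for glutamine withdrawal in siCont cells was 1.99, or 3.97-fold, the 142nd highest of all genes. Its other probe set went from 414 to 2123, a difference of 2.36.

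CCN2 followed the same order of arrays, at 375.2 in siCont normal medium, 1225 in siCont without glutamine, 813 and 861 with siBRAF and 291 with siATF4. Its glutamine difference in siCont cells was 1.70, or 3.26-fold. AMOTL2, whose product is a scaffold that holds YAP at junctions, read 387, 1249, 601, 583 and 299 on the same arrays, a glutamine difference of 1.69. LATS2, the kinase at the end of the cascade, read 255, 779, 546, 514 and 262, a difference of 1.61. In these 3 genes, as in CCN1, the siCont glutamine-free array stood above both siBRAF arrays, which stood above siCont in normal medium.

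LATS2 has 4 probe sets, and a second one with signal well above the array median gave 1.53, from 130 to 379.5. The remaining 2 lay near or below the median on the medium arrays, at 4.97 to 19.7, and gave 0.07 and 0.19. Averaging all 4 gave LATS2 a difference of 0.85.

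ANKRD1 was far closer to the array median than the other targets. It read 40.8 in siCont normal medium, 96.6 without glutamine, 36.5 and 40.8 with siBRAF and 33.02 with siATF4. Only the siCont glutamine-free array stood out, and the other 4 spanned 33.02 to 40.8. The difference of 1.22 became 0.99 with log2(intensity + 16).

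The coactivator genes did not share this pattern. WWTR1 read 4172 in siCont normal medium and 2541 without glutamine, a difference of -0.72, against 4175 and 4219 with siBRAF and 4087 with siATF4. The siCont glutamine-free array was the lowest and the other 4 arrays were close together. All 3 of its probe sets were lower without glutamine, at -0.39, -0.72 and -0.75. YAP1 read 829, 608, 628, 657 and 867 on the 5 arrays, a glutamine difference of -0.45. Another YAP1 probe set gave -0.47 but the last gave 0.37 (359 to 464), so the direction for YAP1 depends on the probe set.

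**Figure D2:**
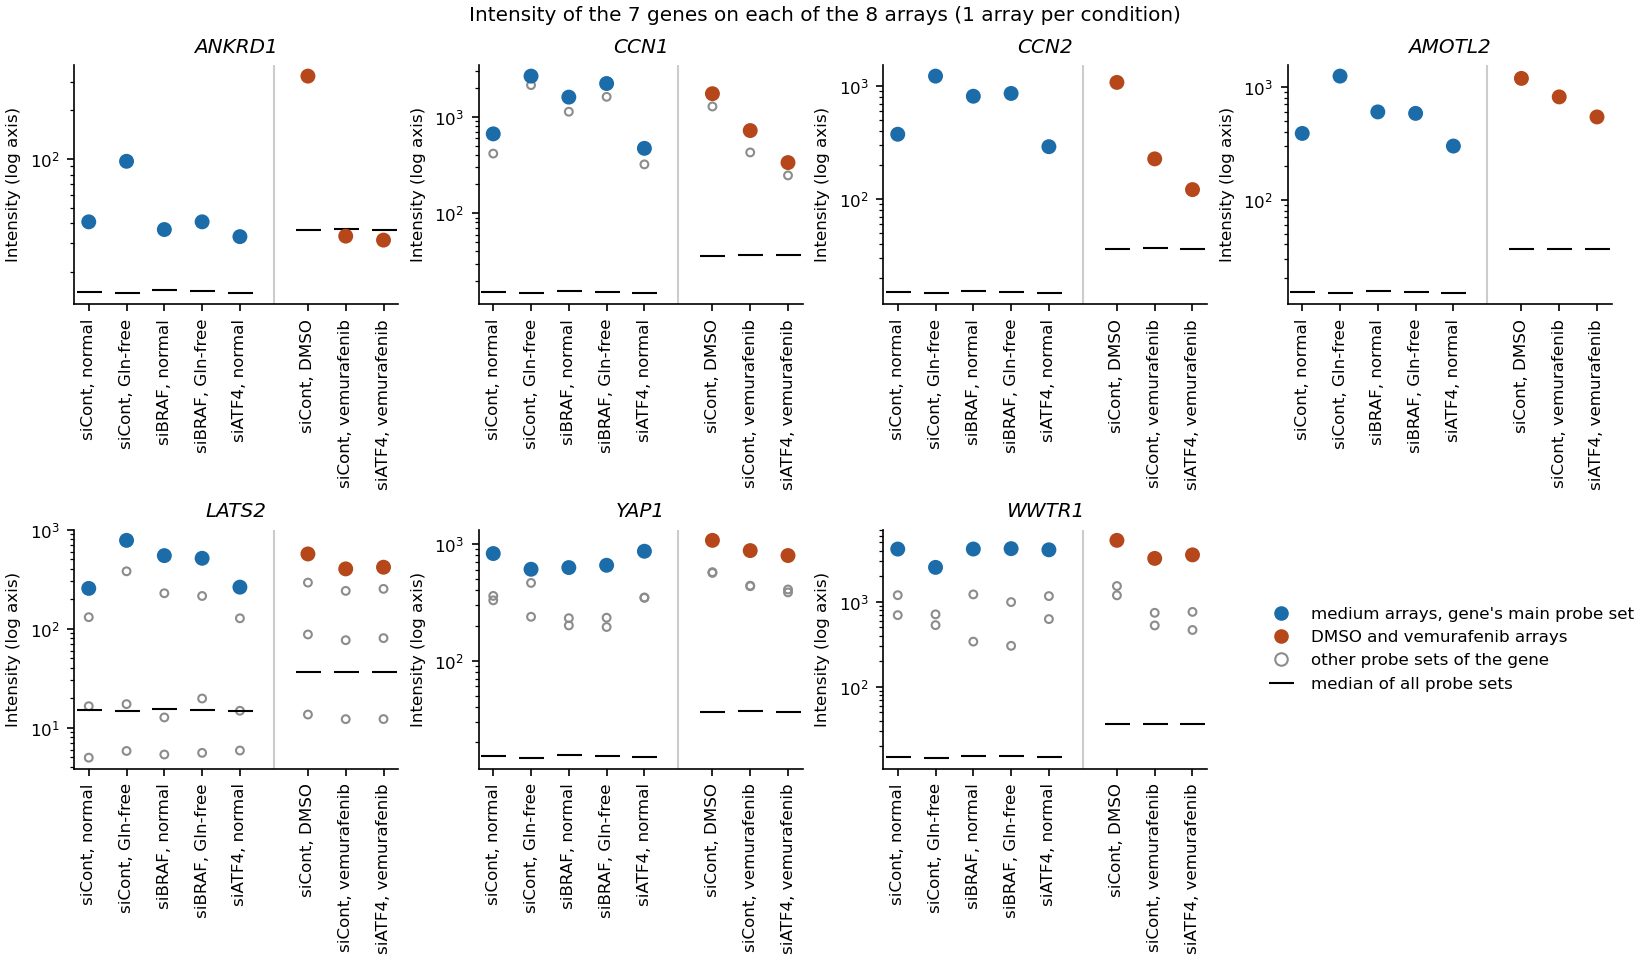
Intensity of each of the 7 genes (log y axis) on the 8 arrays (x axis), with blue and orange points for the probe set that stands for the gene, open circles for its other probe sets and black dashes for the array's median over its probe sets. CCN1, CCN2, AMOTL2, LATS2 and ANKRD1 are highest among the medium arrays in siCont cells without glutamine, where WWTR1 is lowest at 2541.

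With BRAF knocked down, all 7 members were within 2-fold between the media, with a median difference of 0.06. Few genes passed 2-fold in this comparison: 0.0609% of 13128 up, 0.0762% down and 0.137% either way. CCN1 was the member farthest from 0, at 0.47 (1593 to 2205), and was the 182nd highest gene of this comparison, with 0.51 from its other probe set. CCN2 was at 0.08, AMOTL2 at -0.04, LATS2 at -0.09, ANKRD1 at 0.15, YAP1 at 0.06 and WWTR1 at 0.02. Across all genes the SD of this comparison was 0.19, against 0.72 in siCont cells.

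The glutamine difference in siBRAF cells minus that in siCont cells was -1.73 for AMOTL2, -1.70 for LATS2, -1.62 for CCN2, -1.52 for CCN1 and -1.07 for ANKRD1. It was 0.51 for YAP1 and 0.73 for WWTR1. Over 13702 genes 5.72% had a value of -1 or lower. These values rest on 4 single arrays and were not tested.

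BRAF knockdown in normal medium went with higher CCN1, CCN2 and LATS2. CCN1 was at 1.26 (1593 against 663), CCN2 at 1.11 (813 against 375.2) and LATS2 at 1.10 (546 against 255). AMOTL2 was at 0.63, short of 2-fold, and ANKRD1 at -0.15. This made 3 of the 7 members at least 2-fold up and 0 down, around a median of 0.63. The shares past 2-fold among 13337 genes were 7.21% up, 7.66% down and 14.9% either way, and their median was -0.01. For LATS2 the second probe set with clear signal gave 0.80, and the mean of all 4 gave 0.41, so its place above 2-fold rests on 1 probe set.

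YAP1 was lower with siBRAF in normal medium on all 3 of its probe sets, at -0.40, -0.51 and -0.84. In glutamine-free medium they gave 0.11, -0.03 and -1.25. WWTR1 probe sets disagreed. The brightest was level at 4175 against 4172 and a second gave 0.03, while the dimmest read 340.3 against 697, a difference of -1.03. That probe set carries the suffix of sets shared between transcripts. It was also lower with siBRAF in glutamine-free medium, at -0.81, where the other 2 gave 0.48 and 0.73.

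In glutamine-free medium all 5 targets were lower in siBRAF than in siCont cells. ANKRD1 was at -1.22 (40.8 against 96.6), AMOTL2 at -1.10 (583 against 1249), LATS2 at -0.60 (514 against 779), CCN2 at -0.51 and CCN1 at -0.25. Of the 7 members 2 were at least 2-fold lower and 0 higher, with a median of -0.51. Of 13485 genes 12.9% were past 2-fold up, 10.9% down and 23.8% either way. The count of 2 became 1 with log2(intensity + 16), where ANKRD1 was at -0.99, and 1 under quantile normalization, where AMOTL2 was at -0.98. Sign therefore differed between media for CCN1, CCN2, AMOTL2 and LATS2. Both siBRAF comparisons and both glutamine comparisons are built from the same 4 arrays, so they are not separate evidence of each other.

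**Figure D3:**
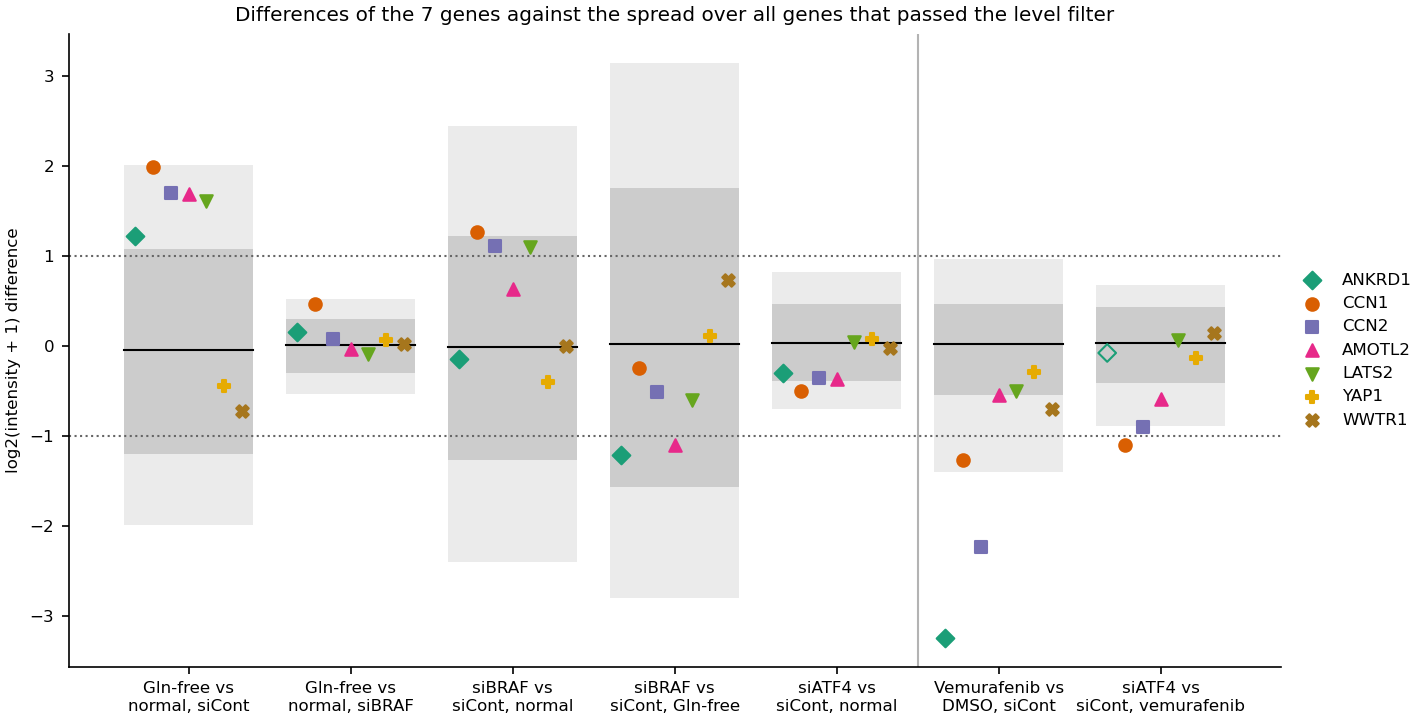
Differences of log2(intensity + 1) for the 7 genes (symbols) in the 7 comparisons of single arrays (x axis), over grey bars that span the 1st to 99th and the 5th to 95th percentile of all genes that passed the level filter, with a black line at their median and dotted lines at 2-fold. An open symbol marks a gene that did not pass the filter; CCN2 at -2.24 and ANKRD1 at -3.25 lie outside the bars in vemurafenib.

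Vemurafenib for 4 h went with lower levels of all 7 members in siCont cells, 3 of them by at least 2-fold. ANKRD1 read 325 in DMSO, 33.3 in vemurafenib and 31.4 in vemurafenib with siATF4. The DMSO array stood alone, and both vemurafenib arrays were below the array median. The difference of -3.25 was the 10th lowest of 13186 genes, and its size depends on background (-2.79 with log2(intensity + 16)).

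CCN2 read 1078 in DMSO, 227 in vemurafenib and 122 in vemurafenib with siATF4, stepping down over the 3 arrays. Its vemurafenib difference was -2.24, or 4.73-fold lower, the 40th lowest gene. CCN1 stepped down in the same order, from 1729 to 718 and 334, with a difference of -1.27 (-1.58 from its other probe set). The feedback genes were less far apart. AMOTL2 read 1192, 816 and 542, a vemurafenib difference of -0.55, and LATS2 568, 401 and 417, a difference of -0.50.

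WWTR1 read 5279 in DMSO, 3239.8 in vemurafenib and 3563 with siATF4 added, and its 3 probe sets gave -0.70, -1.05 and -1.17 for vemurafenib. YAP1 read 1075, 879 and 797, with -0.29 to -0.40 over its probe sets. For all 7 members the median was -0.70, against 0.02 over all genes, of which 0.88% were past 2-fold up, 1.93% down and 2.81% either way.

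ATF4 knockdown in vemurafenib left CCN1 lower by a further -1.10 (334 against 718), the 84th lowest of 13200 genes. Of all genes 0.212% were past 2-fold up in this comparison, 0.727% down and 0.939% either way. Its other probe set gave -0.79, and the mean of both -0.94, so the single member counted became 0 with all probe sets averaged. CCN2 was at -0.90 and AMOTL2 at -0.59. LATS2 was at 0.06, WWTR1 at 0.14 and YAP1 at -0.14, and ANKRD1 did not pass the level filter.

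In normal medium siATF4 left all 7 members within 2-fold, where 0.486% of 13161 genes were past 2-fold up, 0.403% down and 0.889% either way. CCN1 was at -0.50, AMOTL2 at -0.37, CCN2 at -0.36 and ANKRD1 at -0.30. Thus CCN1, CCN2 and AMOTL2 were lower with siATF4 in both settings, which share no array but both use siATF4. In normal medium 2.85%, 5.76% and 5.52% of all genes were at or below their values. On the probe sets that stand for them, LATS2, YAP1 and WWTR1 lay within 0.14 of 0 in both. Another WWTR1 probe set gave -0.15 in normal medium and -0.18 in vemurafenib, and another YAP1 probe set -0.18 in vemurafenib. Whether the siATF4 differences differ between the settings was not tested.

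**Figure D4:**
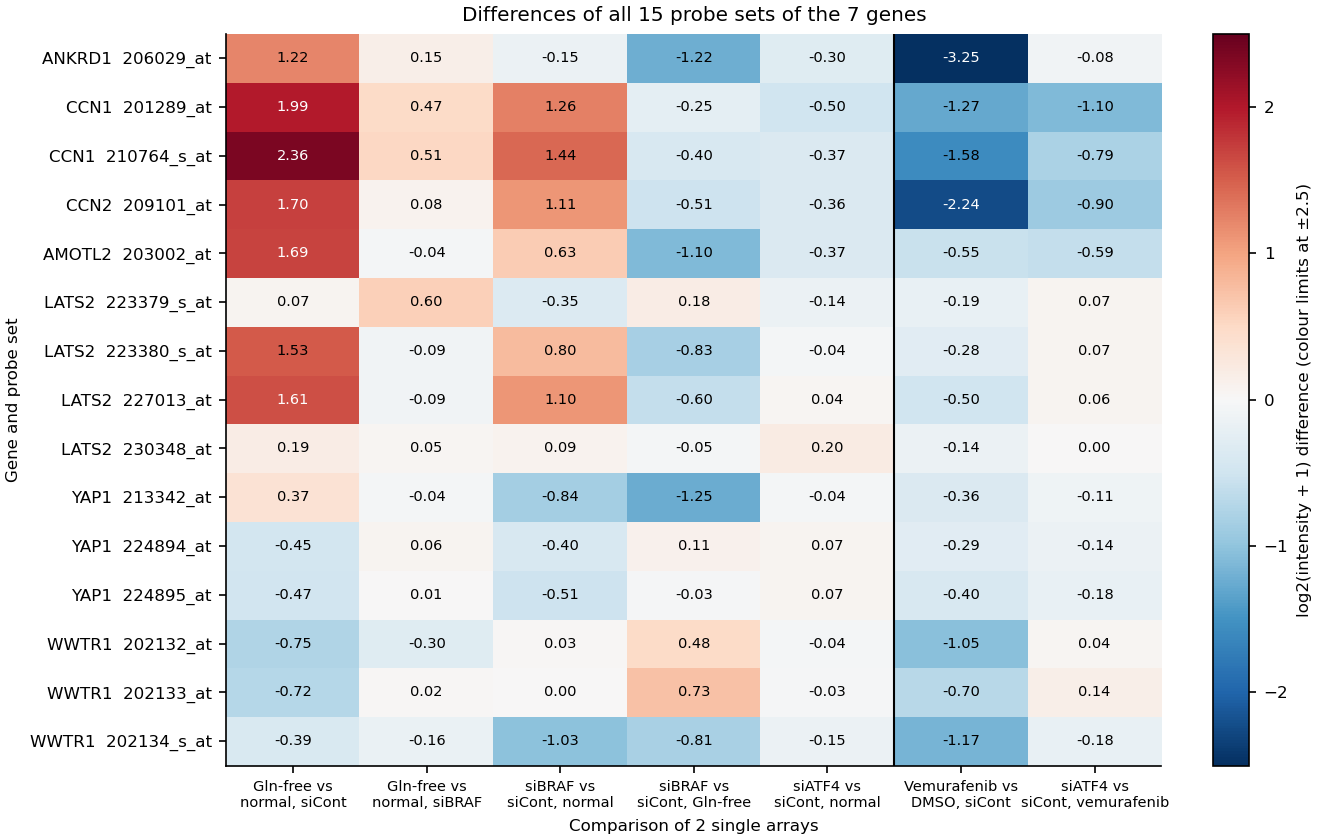
Differences of log2(intensity + 1) for each of the 15 probe sets (rows) in the 7 comparisons (columns), printed in the cells and coloured from blue (lower) to red (higher). The probe sets of CCN1 run together, while 1 of 3 for WWTR1 and 1 of 3 for YAP1 depart from the others with siBRAF.

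Side by side, BRAF knockdown in normal medium and 4 h of vemurafenib gave CCN1 differences of 1.26 and -1.27, CCN2 1.11 and -2.24, LATS2 1.10 and -0.50, AMOTL2 0.63 and -0.55, and ANKRD1 -0.15 and -3.25. ERK output genes were lower in both, with SPRY4 at -2.59 and -2.34 and ETV5 at -3.23 and -2.87. ANKRD1 read 40.8 in siCont normal medium, where the array median was 15.1, and 325 in DMSO, where it was 36.3. It thus started closer to the median in normal medium, which left less room for a lower value there. The comparisons share no array but differ in time, agent and array set, and the difference between them was not tested.

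The patterns of CCN1, CCN2 and ANKRD1 were set against those of other genes by the Pearson correlation of log2 values over the 8 arrays, centred within each set. Among 609 genes that reached the array median and spanned at least 2-fold in both sets, those most like CCN1 were CCN2 (r = 0.951), SAMD4A (0.950) and MAPK6 (0.939). For CCN2 they were SAMD4A (0.952), CCN1 (0.951) and ST3GAL1 (0.916). For ANKRD1 they were RND3 (0.967), SPRY2 (0.963) and EPHA2 (0.958). SPRY2, a feedback inhibitor of ERK signalling, read 1144 in siCont normal medium, 2819 without glutamine, 556 and 524 with siBRAF, 1990.0 in DMSO and 92.5 in vemurafenib. SAMD4A, an RNA-binding repressor gene, read 64.2, 216, 129 and 148 on the first 4 of these and 176 and 61.0 on the last pair. Within the members, CCN1 and AMOTL2 had r = 0.91, AMOTL2 and LATS2 0.91, and ANKRD1 and LATS2 0.52, while YAP1 had values of -0.65 to 0.28 with the 5 targets. The 8 points share arrays and siRNAs across genes, so these are descriptions.

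The Hippo list holds 18 genes for kinases, adaptors, angiomotins and the phosphatase PTPN14, of which 16 passed the filter in each comparison. Glutamine withdrawal in siCont cells left 15 of these within 2-fold, with a median of 0.00; TAOK2, an upstream kinase, was at -1.29 (85.0 to 34.2). With siBRAF 0 of 16 were 2-fold apart in normal medium. In glutamine-free medium 2 were higher, the angiomotin AMOTL1 (1.06) and TAOK2 (1.04), and 2 lower, the kinase scaffold SAV1 (-1.13) and WWC1 (-1.01). In vemurafenib AMOTL1 alone was 2-fold lower, at 359 against 839. For siATF4 the count was 0 of 16 in both settings. Over all genes 13.1% were 2-fold apart either way for glutamine in siCont cells and 2.81% for vemurafenib. With siBRAF the shares were 14.9% in normal and 23.8% in glutamine-free medium. With siATF4 they were 0.889% in normal medium and 0.939% in vemurafenib.

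The TEAD and VGLL list holds the 4 DNA-binding TEAD factors and 3 vestigial-like cofactors that compete for them. TEAD1 read 544 to 747 on the medium arrays and was within 2-fold in all 7 comparisons. TEAD2 was at -1.02 without glutamine in siCont cells, from 70.3 to 34.1, and at 1.32 with siBRAF in glutamine-free medium (86.8 against 34.1). VGLL4, which opposes YAP at TEAD, was higher with siBRAF in both media, at 1.22 (660 against 282) and 1.72 (617 against 186). VGLL3, whose siCont values on the medium arrays were under the median, was at 1.35 and 2.83, and at 1.34 in vemurafenib (109 against 42.3).

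A wider published YAP and TAZ signature, 17 genes without the members, had 16 with a probe set of 1 symbol. It shares PTPN14 with the Hippo list and AXL with the melanoma markers. In siCont cells 2 of 16 were at least 2-fold up without glutamine, and 0 down, around a median of 0.42. The 2 were the growth arrest gene GADD45A (3.29, from 544 to 5350.4) and FJX1 (1.25). Over all genes 5.8% were up and 7.26% down. With siBRAF in normal medium 1 of 16 was at least 2-fold up, TGFB2 (1.40), and 2 were down, NT5E (-3.42) and IGFBP3 (-2.56). Their median was 0.08, and over all genes 7.21% were up and 7.66% down. In glutamine-free medium 3 were at least 2-fold higher and 6 lower, around a median of -0.18. The largest differences were those of NT5E (-4.44), IGFBP3 (-2.86), GADD45A (-2.53) and TGFB2 (1.67). The shares over all genes there were 12.9% up and 10.9% down. In vemurafenib 3 were at least 2-fold lower and 0 higher, around a median of -0.33. The 3 were the tissue factor gene F3 (-2.08, below the median in vemurafenib), FJX1 (-1.52) and IGFBP3 (-1.02). Over all genes 1.93% were down and 0.88% up. With siATF4 IGFBP3 was the 1 gene at least 2-fold lower in each setting, at -1.12 in normal medium and -1.35 in vemurafenib. Of all genes 0.403% and 0.727% were that much lower.

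CCN1 and CCN2 also respond to SRF, the serum response factor, so 12 SRF and cytoskeletal genes were set beside them. Without glutamine FHL2, a LIM-domain cofactor, was at 1.91 in siCont cells (286 to 1075) and TPM1, a tropomyosin, at -1.10, with a list median of 0.04. With siBRAF in normal medium 3 of the 11 that passed were at least 2-fold higher and 0 lower, around a median of 0.19. The 3 were smooth muscle actin ACTA2 (3.08, 756 against 88.3), the myosin light chain MYL9 (2.20) and TAGLN (1.33). Over all genes 7.21% were up and 7.66% down. In glutamine-free medium 5 were at least 2-fold higher, led by MYL9 (3.28), ACTA2 (2.72) and TPM1 (2.24), and FHL2 was lower, at -1.65. The list median was 0.87, and over all genes 12.9% were up and 10.9% down. MYL9 in siCont cells read 14.9 there, close to the array median of 14.7. In vemurafenib FHL2 alone was 2-fold lower, at -1.05, where 1.93% of all genes were. Of 4 fibroblast markers LUM was higher with siBRAF in normal medium (248.7 against 51.6), while COL1A1, DCN and PDGFRB were within 2-fold; the summed list was 450 against 241. In glutamine-free medium LUM read 388 against 12.5, the latter below the array median, and the summed list 580 against 172. COL1A1, DCN and PDGFRB were at 0.12, 0.13 and 0.78 there. In siCont cells LUM was at -1.96 without glutamine, a difference that rests on the same value below the median. Of the melanoma and neural crest markers NGFR was at 3.14 and 3.64 with siBRAF in normal and glutamine-free medium, and S100B at 2.17 and 3.25. AXL was at -0.51 and -1.19, and SOX10 at 0.40 and -0.22. Medians of the 7 markers that passed were 0.40 and 0.19. In normal medium 3 were at least 2-fold higher and 0 lower, and in glutamine-free medium 2 were higher and 1 lower. The part of this in the SRF and CCN values was not tested.

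Of the 4 relatives CCN3 to CCN6, CCN3, which can oppose CCN2, read 110 in siCont normal medium, 40.3 without glutamine, and 3890 and 3372 with siBRAF. It was therefore lower without glutamine in siCont cells (-1.43) and higher with siBRAF in both media (5.13 and 6.35). In vemurafenib it was level, at 191 against 203. CCN6 was at 1.22 and 1.64 with siBRAF, the direction that CCN1 and CCN2 had in normal medium. CCN5 lay below the median on 6 arrays and CCN4 on all 8.

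**Figure D5:**
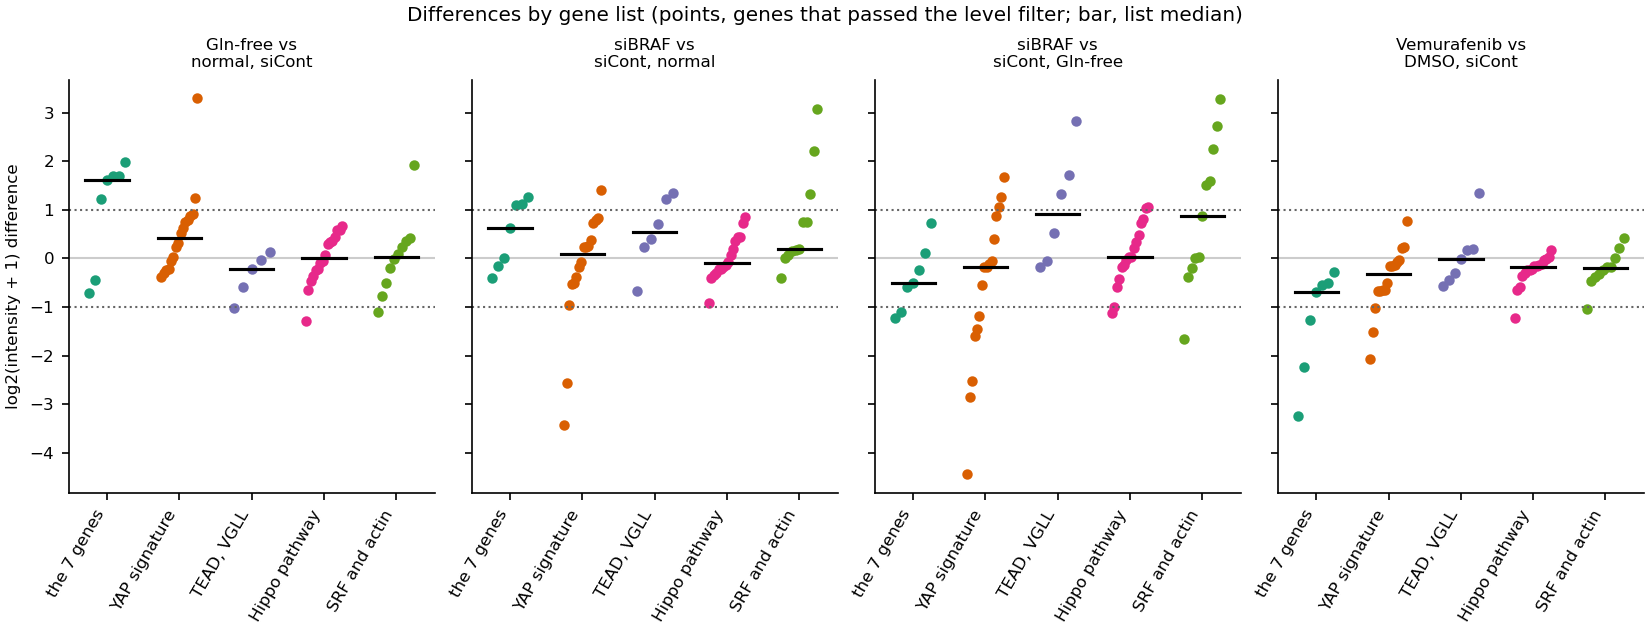
Differences of log2(intensity + 1) (y axis) for genes that passed the level filter in 5 lists (x axis) and 4 comparisons (panels), with black bars at the list medians and dotted lines at 2-fold. PTPN14 is drawn in both the Hippo and the YAP signature lists. The members have a median of 1.61 without glutamine and -0.70 in vemurafenib, against 0.42 and -0.33 for the wider YAP signature. Members and lists were chosen with earlier results of these data known.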

How the data were processed

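Per the labels, biotin-labelled cRNA from A375 cells was hybridised to Affymetrix human arrays. The authors deposited intensity values on a linear scale, made with RMA per the submitters' processing notes; the version and whether the 8 arrays were processed together are not given in the sources used here. Of 54675 probe sets 62 array controls were left out; 41091 had 1 symbol, 1801 several and 11721 none. Symbols were updated through gene IDs to RefSeq.

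Values were used as deposited, as log2(value + 1), in Python 3.11.15 with pandas 2.3.3. Folds are on that scale, which shrinks differences of dim genes. Where a gene has several probe sets, that with the highest mean intensity stands for it. The filter was the 50th percentile of the array. A 2-fold difference was the threshold for counts. The calling code was run on simulated data whose planted changes were all larger than that. Such a run checks the code and cannot show the error of a single array. All members were named; from the other lists, up to 4 genes per comparison with the largest differences of at least 2-fold, ATF4, DUSP6, SPRY4 and ETV5 as label checks, and 3 genes most like each of CCN1, CCN2 and ANKRD1. LUM, COL1A1, DCN, PDGFRB and other markers come from the marker lists; TEAD1, CCN4 and CCN5 were named after their values were seen. Alternatives were another added constant, other filters, other probe set rules and quantile normalization. Members and lists were chosen with earlier results of these data known. NUAK2 and FLNA were not analysed here.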

Additional observations from a re-analysis of the deposited data

Results flagged for a closer look

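For 4 genes the siBRAF difference pointed up in normal medium and down in glutamine-free medium, with the first minus the second at least 2-fold apart. The glutamine-free minus the normal-medium difference was -1.73 for AMOTL2, -1.70 for LATS2, -1.62 for CCN2 and -1.52 for CCN1. In glutamine-free medium itself AMOTL2 was at -1.10, LATS2 at -0.60, CCN2 at -0.51 and CCN1 at -0.25. The last is small, as 33% of all genes were at or below it. The same 4 arrays give the glutamine difference in siBRAF minus siCont cells, which pointed in opposite ways for AMOTL2 (-0.04 against 1.69) and LATS2 (-0.09 against 1.61), where the siBRAF values are close to 0. Each direction rests on 1 array per condition, and the difference was not tested.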

How the results depend on the processing

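Of the 49 member differences, 14 were at least 2-fold. Under the 6 alternatives these 14 gave 84 values, of which 84 kept their sign and 78 stayed at least 2-fold. Many of these values could not move. The other filters change which genes are counted and leave each difference as it was. Leaving out shared probe sets kept the main probe set of every gene concerned, and averaging cannot move a gene with 1 probe set. The counts of 84 and 78 therefore overstate how far the differences were tried. The number of members at least 2-fold apart with siBRAF in glutamine-free medium went from 2 to 1 with log2(intensity + 16) and to 1 under quantile normalization, and with siATF4 in vemurafenib from 1 to 0 when a gene's probe sets were averaged. That mean, which includes dim probe sets, also moved LATS2 to 0.85 without glutamine in siCont cells and to 0.41 with siBRAF in normal medium, and WWTR1 to 0.13 with siBRAF in glutamine-free medium. Counts over all genes moved by over 1.5 times for glutamine in siBRAF cells (18 to 11 with the 75th percentile filter, 9 with log2(intensity + 16), 11 without shared probe sets), for siATF4 in normal medium (117 to 70, 57 likewise, 71 with averaged probe sets) and for vemurafenib (371 to 244 with that mean). The median of all genes stayed within 0.05 of 0 in every setting. No paired analysis was possible because each condition has 1 array. ANKRD1 in vemurafenib was below the array median, so signal over background limits the size of its difference.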
